A study of Mus musculus with 6 samples.

Results

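The mitochondrial ribosomal protein genes are the nuclear genes that encode the proteins of the ribosome inside the mitochondrion. They were taken as every gene whose symbol in the array's annotation starts with Mrpl or Mrps followed by a number, measured by a probe set with 1 symbol. For each gene the probe set with the highest mean signal over the 6 arrays was used. The rule gave 76 genes of the 18193 with 1 symbol, and all 76 were among the 13043 genes bright enough to be tested. Fat tissue RNA of NOD mice, an inbred strain that develops autoimmune diabetes, was hybridised to Affymetrix arrays in 3 groups of 2 arrays each. NOR mice were females aged 10 weeks with normal blood glucose. DIA mice had blood glucose above 300 mg/dl on 3 days in a row. AAT mice had been treated with alpha-1-antitrypsin, a circulating inhibitor of serine proteases, and had reverted stably from diabetes without needing insulin. The labels give age and sex for NOR alone, no dose, time or vehicle for the treatment, no fat depot, and no statement that the arrays came from separate mice. The p-values therefore measure only the spread between these arrays, which may be technical.

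The mitochondrial ribosome translates the few messenger RNAs of the mitochondrial genome, which encode core subunits of the respiratory chain and of ATP synthase. It descends from a bacterial ribosome: some of its proteins have bacterial homologs and others were added in the mitochondrial lineage. All its proteins are made in the cytosol from nuclear genes, imported, and assembled with mitochondrial ribosomal RNA into a small subunit, which decodes, and a large subunit, which forms peptide bonds. In fat, mitochondria supply the energy and the citrate used for fat synthesis and release.

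Of the 76 genes, 49 encode proteins of the large subunit, 28 of them with a bacterial homolog and 21 without. The small subunit accounted for 26, of which 17 have a bacterial homolog and 9 do not. Mrps18a and Mrps30 count with the large subunit, where their proteins sit in spite of their names. Mrps36 counts with neither, because its protein belongs to the 2-oxoglutarate dehydrogenase complex of the citric acid cycle. Mrpl30 and Mrpl53 share their probe sets with another symbol and are not included. Signals are the deposited linear array values, and differences are given on the log2(signal + 74) scale, which understates the change of dim genes. Signals of different probe sets depend on their probes and are not read as an order of transcript levels.

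The start regions of some members hold motifs of regulators known for nuclear genes of mitochondrial function. RefSeq gave a window of 250 bases before to 50 bases after the gene start (build GRCm38.p6) for 67 of the 76 members. The ETS core CCGGAAG, which GABPA binds, was present on either strand in 25 of the 67, 37.3%, against 18% of 10488 tested genes with a window and 8.86% of all 32851 windows. The YY1 motif AAGATGGCG was present in 8 members, 11.9% against 3.15% of tested genes and 1.4% of all windows. The NRF1 core GCGCATGCG was present in 7 members, 10.4% against 3.79% and 1.75%. This core was shortened at one end after a longer form had been counted, so its shares follow a choice made with counts seen. The Sp1 motif GGGGCGGGG was found in 13 members, 19.4% against 23.7% of tested genes. The CREB motif TGACGTCA was found in 2, 2.99% against 3.2%, and the E-box CACGTG in 5, 7.46% against 11.1%. These shares describe letters in fixed windows, not bound sites, and a motif of one kind was counted whether or not it overlapped another.

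The 4 regions of 250 bases before the start shown here were chosen because their genes carry the comparisons that follow. Mrps18a had the smallest p-value of all members against NOR, Mrpl27 and Mrpl32 were among the lowest in DIA, and Mrps18c is the Mrps18a relative with the smallest differences. Capitals mark the ETS core, as CCGGAAG or its reverse complement CTTCCGG, and in Mrpl32 the NRF1 core, GCGCATGCG or CGCATGCGC. The positions are Mrps18a, chr17:46110754-46111003, plus strand; Mrpl27, chr11:94653541-94653790, plus strand; Mrpl32, chr13:14613038-14613287, minus strand; and Mrps18c, chr5:100798509-100798758, plus strand. Each is printed 5′ to 3′ in the direction of its gene.
Mrps18a: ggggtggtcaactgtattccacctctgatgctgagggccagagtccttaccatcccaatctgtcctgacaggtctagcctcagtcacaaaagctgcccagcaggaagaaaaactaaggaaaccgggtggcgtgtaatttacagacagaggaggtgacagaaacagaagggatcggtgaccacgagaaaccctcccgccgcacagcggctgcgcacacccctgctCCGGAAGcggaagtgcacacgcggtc
Mrpl27: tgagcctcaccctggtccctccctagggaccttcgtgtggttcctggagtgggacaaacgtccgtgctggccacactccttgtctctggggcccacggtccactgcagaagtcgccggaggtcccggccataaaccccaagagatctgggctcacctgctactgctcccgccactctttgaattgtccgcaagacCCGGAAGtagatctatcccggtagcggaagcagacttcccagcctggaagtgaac
Mrpl32: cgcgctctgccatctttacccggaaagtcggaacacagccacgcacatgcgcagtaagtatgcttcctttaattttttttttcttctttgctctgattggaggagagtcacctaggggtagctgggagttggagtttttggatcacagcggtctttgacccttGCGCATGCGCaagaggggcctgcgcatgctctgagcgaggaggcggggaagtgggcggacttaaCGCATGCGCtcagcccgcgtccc
Mrps18c: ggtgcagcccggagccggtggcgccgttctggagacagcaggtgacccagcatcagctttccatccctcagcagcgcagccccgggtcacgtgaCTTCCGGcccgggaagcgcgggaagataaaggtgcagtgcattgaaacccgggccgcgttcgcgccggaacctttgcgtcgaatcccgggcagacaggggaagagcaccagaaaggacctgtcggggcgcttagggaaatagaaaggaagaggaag
The Mrpl32 region held the NRF1 core at 2 places, and at one of them the forms of both strands overlapped. The ETS core stood close to the start in Mrps18a and Mrpl27 and farther away in Mrps18c. In DIA against NOR, the 25 members with the ETS core had a median difference of -0.37, with 21 lower, and the 42 without it -0.34, with 32 lower. No test was run on this split.

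The arrays also differed in control signals and cell type markers, partly along the groups, and these values stand beside every result. The 3′ to 5′ signal ratio of the beta-actin control, a measure of RNA integrity and labelling, was 3.63 and 4.30 in NOR, 15.2 and 15.5 in DIA, and 9.08 and 5.87 in AAT. For the Gapdh control this ratio was 0.91 and 0.95 in NOR, 2.46 and 4.63 in DIA, and 2.31 on AAT1 and 0.79 on AAT2. The hybridisation controls averaged a signal of 128547 on NOR1 and 86286 on AAT2, against 25159 to 48494 on the other arrays. Adipocyte markers were strong on every array, with 8 of 10 measured and their median 4.88 to 6.16 log2 units above that of all genes tested. In AAT against NOR all 8 were lower, with a median of -0.68, and in DIA against NOR 4 were lower and 4 higher, with a median of -0.19. Of 8 brown fat markers 5 passed the signal filter, with a summed signal of 1499 to 3674 over the 6 arrays, while Ucp1 was below it, at or under 124 on every array. Of 4 pancreas markers measured 2 passed, with sums of 749.5 to 1037, while Cpa1 was at or under 11.1. The 7 mammary epithelium markers tested summed to 1568 on AAT1 and 9840.2 on AAT2, against 1876 to 4361 on the other arrays. Of 8 macrophage markers, all 8 were higher in DIA than in NOR, with a summed signal of 6034 to 6136 in NOR, 13327 to 27419 in DIA and 10555 to 15598 in AAT. Of 8 smooth muscle markers, all 8 were higher in AAT than in either other group, with sums of 62865 to 96494 in AAT, 8166 to 32555 in NOR and 10731 to 15624 in DIA. Of 5 red cell and platelet markers tested, all 5 were lower in DIA than in NOR, with sums of 9436 to 12148 in NOR, 2602 to 3196 in DIA and 4047 to 10905 in AAT. Lymphocyte markers passed the filter in 2 of 7 measured, 1 higher and 1 lower in DIA than in NOR. Their sums were 459 to 845 in NOR, 825 to 1819 in DIA and 1017 to 1380 in AAT. Skeletal muscle markers passed in 4 of 8, with sums of 2001 to 2684 in NOR, 1275 to 1415 in DIA and 987 to 4143 in AAT. The part of these cell mixtures in the members' values was not tested, and in whole tissue fewer cells of a type and less RNA per cell cannot be told apart.

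As a group, the members were highest in NOR. Their median level stood above the median of all genes tested by 1.17 on NOR1 and 1.05 on NOR2, by 0.66 on DIA1 and 0.83 on DIA2, and by 0.81 on AAT1 and 0.96 on AAT2 (log2). Both NOR arrays lay above the 4 others, and DIA and AAT overlapped. The group means were 1.11 ± 0.08 in NOR, 0.75 ± 0.12 in DIA and 0.88 ± 0.10 in AAT (SD, n = 2 arrays). An exact permutation test of 2 arrays against 2 cannot give a p under 0.333, so none is reported for such a summary. Of the 76 members, 41 had their highest value on NOR1, 8 on NOR2, 7 on each DIA array, 2 on AAT1 and 11 on AAT2. The lowest value fell on DIA1 in 24 members, DIA2 in 16, AAT1 in 18, AAT2 in 12 and each NOR array in 3. These extremes were not counted over all genes tested, so they have no background here. The median signal of all probe sets was also highest on NOR1, at 272.

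**Figure D1:**
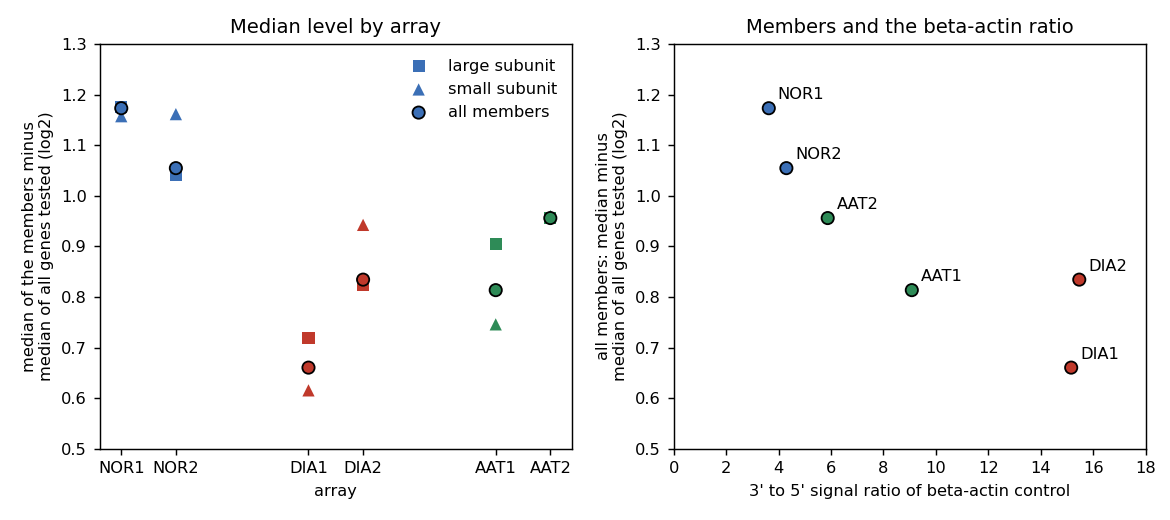
Left, the median log2 level of all members and of each subunit minus the median of all genes tested, on each of the 6 arrays (circles, all members; squares, large subunit; triangles, small subunit; colours, groups). Right, the value for all members against the beta-actin 3′ to 5′ ratio of the same array, where the DIA arrays hold the highest ratios and NOR the lowest.

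**Figure D2:**
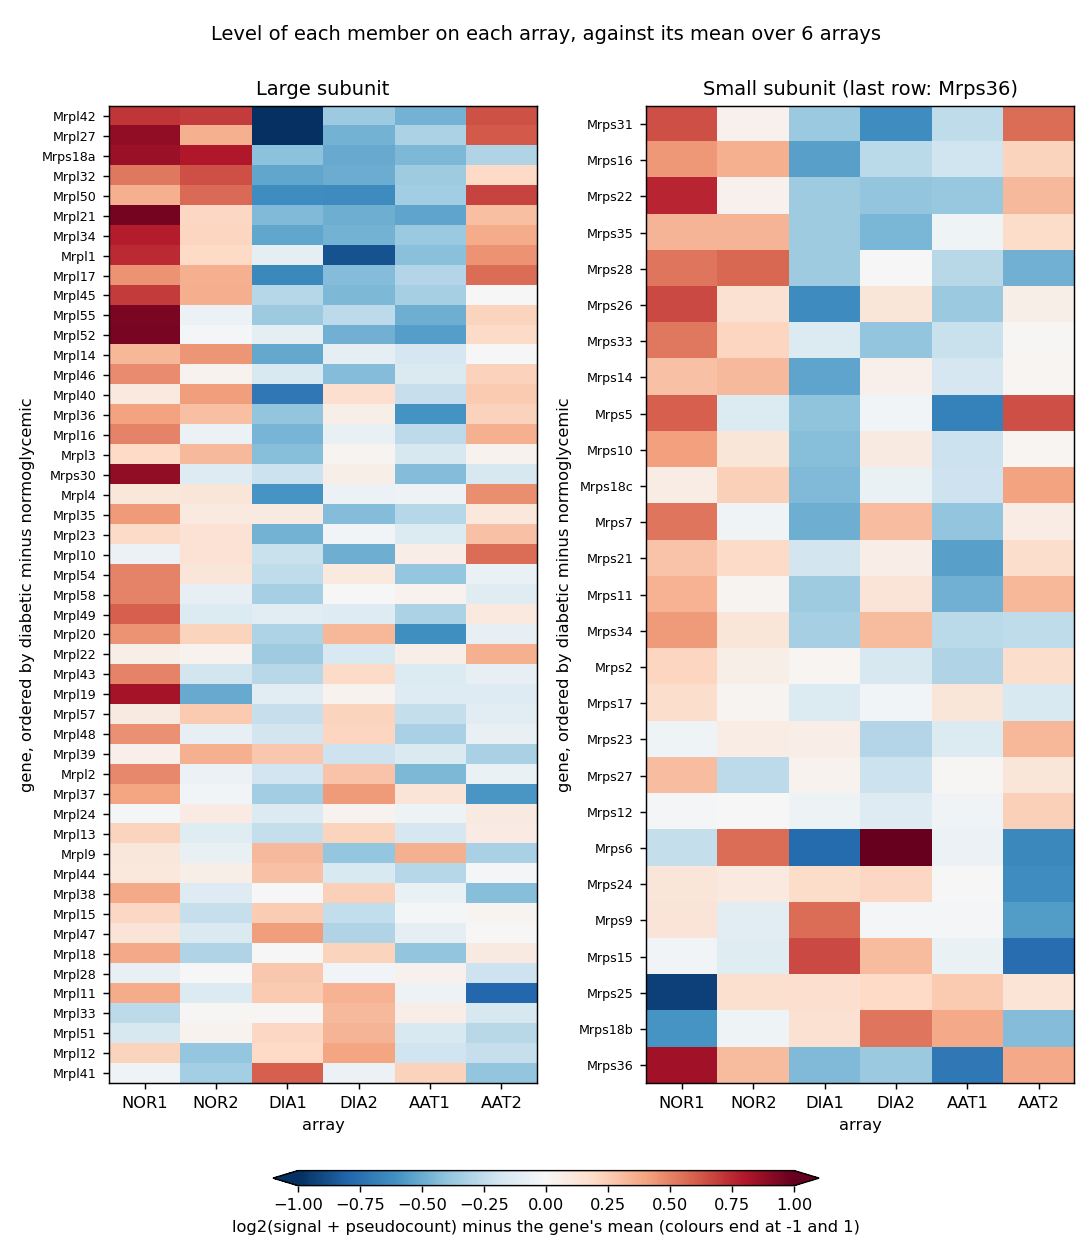
Each row is a member and each column an array, and the colour gives log2(signal + 74) minus the gene's mean over the 6 arrays, with colours ending at -1 and 1. Rows are ordered within each subunit by the difference between DIA and NOR, and red is most frequent in the NOR1 column, where 41 of the 76 members were highest. The same count was not made over all genes tested.

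Diabetic fat was compared with normoglycemic fat first, which asks how the members differ with overt diabetes. Most members were lower in DIA: 61 of 76 had a difference below 0, where 53.6% of all genes tested did, and 15 above 0, where 46.4% did. The median difference was -0.34, against -0.06 over all genes tested. Values were lower on both DIA arrays than on both NOR arrays in 38 members, 50% against a background of 24.5%, and higher on both in 5 members, 6.58% against 20.2%. No member passed limma's test at an adjusted p of 0.05, and neither did any of the 13043 genes, a background of 0%. The smallest adjusted p among the members was 0.458 (limma). At an unadjusted p under 0.05, limma counted 13 members lower, 17.1% against 4.62% of all genes, and 0 members higher against 5.27%.

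**Figure D3:**
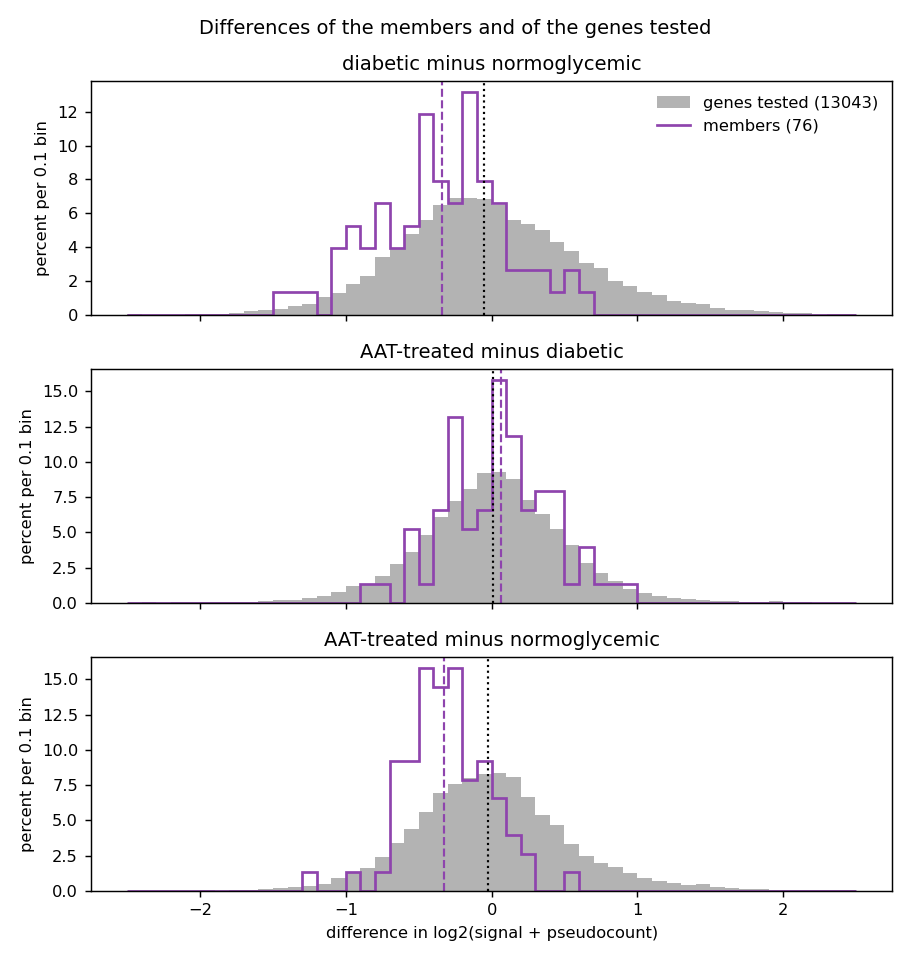
Distribution of the log2 difference in each of the 3 comparisons, as percent of genes per bin of 0.1, for the 76 members (purple outline) and the 13043 genes tested (grey). Dashed and dotted lines mark the medians of members and of all genes, which are -0.34 and -0.06 in the top panel.

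Both subunits held mostly lower members. Of all genes tested, 53.6% were lower in DIA and 4.62% were lower at an unadjusted p under 0.05 (limma). In the large subunit 40 of 49 members were lower, 81.6%, and their median was -0.37. Such a p was found in 9 of them, 18.4%. In the small subunit 20 of 26 were lower, 76.9%, and the median was -0.30. There 3 had such a p, 11.5%. Members with a bacterial homolog had a median of -0.32 and were lower in 34 of 45, and those without one had -0.36 and were lower in 26 of 30. The 9 mitochondria-specific proteins of the small subunit had the lowest median of the 4 classes, -0.64, with 8 lower. No difference between these classes was tested.

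Mrps18a, one of 3 mammalian homologs of a single bacterial small-subunit protein, had signals of 3039.6 and 2913 in NOR, 1218 and 1131 in DIA, and 1181 and 1318 in AAT. Both NOR arrays were high and the 4 others lay close together. DIA differed from NOR by -1.29 ± 0.29 (SE), a ratio of 0.409, with an unadjusted p of 0.00208 and an adjusted p of 0.458 (limma). Over the alternatives fitted to all 6 arrays, the difference ranged from -1.33 to -0.81 and its adjusted p from 0.430 to 0.845 (limma). Only 1 probe set of the array reads this gene.

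The other homologs differed in pattern. Mrps18b, whose protein is in the small subunit, had signals of 508 and 780.1 in NOR, 903 and 1195 in DIA, and 1070.1 and 575 in AAT. Both DIA arrays were above both NOR arrays, and the difference was 0.66 ± 0.39 (SE; unadjusted p = 0.13, limma). Mrps18c, the third homolog and also in the small subunit, had 1409 and 1588 in NOR, 965 and 1274 in DIA, and 1146 and 1786 in AAT. Its DIA arrays were below its NOR arrays, with a difference of -0.41 ± 0.34 (SE; unadjusted p = 0.265, limma), and its AAT arrays spanned both groups.

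Among large-subunit members with a bacterial homolog, Mrpl27 and Mrpl32 had the smallest p-values after Mrps18a. The bacterial homolog of Mrpl27 reaches toward the peptidyl transferase centre. Mrpl27 signals were 4109 and 2833 in NOR, 1009 and 1563 in DIA, and 1743 and 3392 in AAT. The NOR and DIA arrays did not overlap, and the difference was -1.39 ± 0.42 (SE; unadjusted p = 0.00979, limma). Mrpl32, whose precursor is cut by the m-AAA protease during ribosome assembly, had 2645 and 2875 in NOR, 1244 and 1266 in DIA, and 1399 and 2089.7 in AAT. Its DIA arrays differed by little from each other, and DIA was below NOR by a difference of -1.09 ± 0.32 (SE; unadjusted p = 0.00882, limma).

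Among large-subunit members without a bacterial homolog, Mrpl42 and Mrpl45 led. Mrpl42 had the largest difference of all members, with signals of 2464 and 2436 in NOR, 593 and 1130.4 in DIA, and 1044 and 2326 in AAT. DIA2 had a higher signal than DIA1, both stayed below NOR, and the difference was -1.49 ± 0.45 (SE; unadjusted p = 0.00962, limma). Mrpl45 lies at the exit of the nascent chain and anchors the ribosome to the inner membrane. Its signals were 1715 and 1339 in NOR, 828 and 733 in DIA, and 801 and 1025 in AAT. All DIA and AAT arrays were below both NOR arrays, and DIA differed by -0.90 ± 0.32 (SE; unadjusted p = 0.0209, limma).

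**Figure D4:**
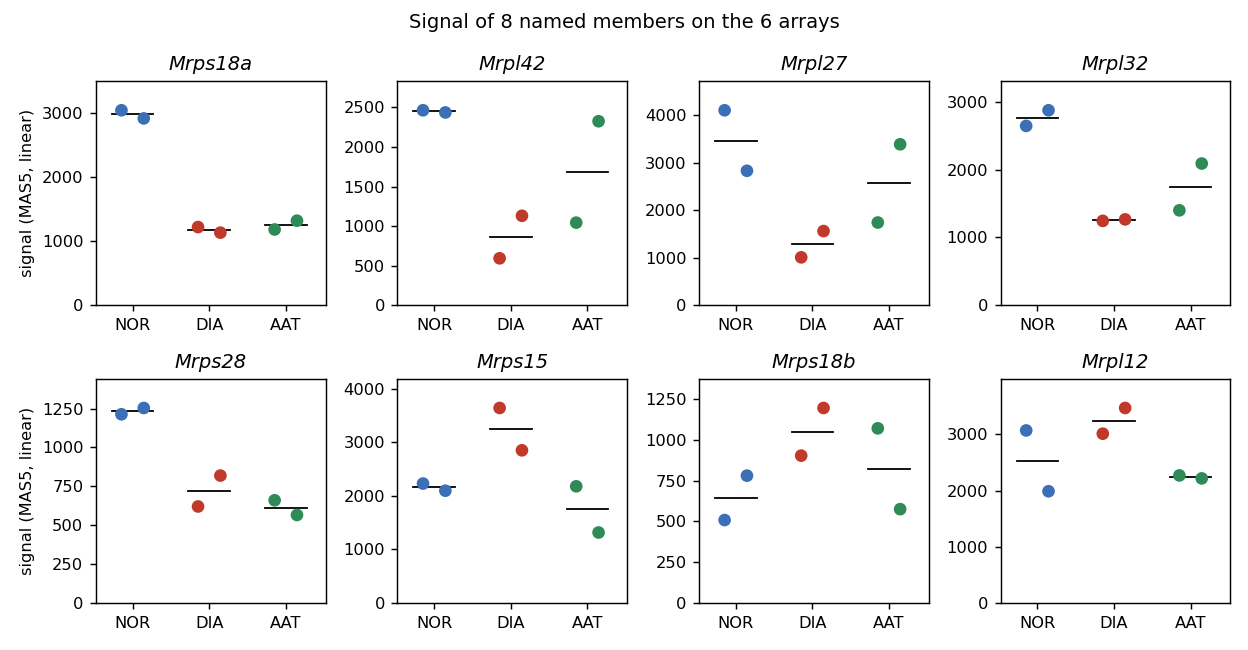
Linear signal of 8 members on the 6 arrays, with each point an array and each black line the mean of a group of 2. Mrps18a is high only on the 2 NOR arrays, Mrpl42 and Mrpl27 return to high values on AAT2 alone, and Mrps28 is low in DIA and AAT.

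The 8 other members with an unadjusted p under 0.05 are named here because of that p and were chosen after their values were seen. Mrpl50, Mrpl34, Mrpl21 and Mrpl17, all of the large subunit, differed by -1.09, -0.99, -1.05 and -0.94. A second probe set above the signal filter gave only -0.21 for Mrpl50, -0.04 for Mrpl34 and -0.17 for Mrpl21. The other probe sets of Mrpl17 gave -0.62 and -0.69. Mrps16, Mrps35 and Mrps28, of the small subunit, differed by -0.80, -0.75 and -0.73. Mrps36, the dehydrogenase component, had signals of 2239.5 and 1539 in NOR, 878 and 929 in DIA, and 715 and 1607 in AAT, and its difference was -0.98 ± 0.41 (SE). On the chosen probe set of each of these 8, both DIA arrays were below both NOR arrays.

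No member higher in DIA had an unadjusted p under 0.05 in limma. Mrps15, of the small subunit, had signals of 2231 and 2097 in NOR, 3644 and 2853 in DIA, and 2180.0 and 1316 in AAT, with a difference of 0.56 ± 0.35 (SE; unadjusted p = 0.145, limma). Its groups NOR and DIA did not overlap on this probe set. A second probe set for Mrps15 went the other way, by -0.73. Mrpl41 had 4491 and 3649.8 in NOR and 7051 and 4446 in DIA, which overlapped, and its second probe set differed by -0.98 where the first gave 0.46 ± 0.38 (SE). The latter was 0.13 without DIA1 and 0.79 without DIA2. Mrps25 differed by 0.57 ± 0.40 (SE), from 353 on NOR1, 837 on NOR2, 841 on DIA1 and 862 on DIA2. Only NOR1 stood apart, and without it the difference was 0.02.

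A further 3 members with known special roles were followed throughout. Mrpl12, a stalk protein that also binds the mitochondrial RNA polymerase, had signals of 3072 and 1989 in NOR, 3014 and 3472 in DIA, and 2271 and 2218 in AAT. Its NOR and DIA arrays overlapped, and the difference was 0.38 ± 0.33 (SE; unadjusted p = 0.287, limma), with 0.073 without NOR2 and 0.68 without NOR1. Mrps12, which takes part in accurate decoding, had signals of 1496 and 1510.4 in NOR, 1467 and 1380.3 in DIA, and 1480.4 and 1809.9 in AAT. DIA differed from NOR by -0.08 ± 0.30 (SE), and only AAT2 stood above the rest. Mrpl1, of the stalk beside the tRNA exit site, had 657 and 426 in NOR, 333 and 165 in DIA, and 252 and 521 in AAT, with a difference of -0.96 ± 0.46 (SE; unadjusted p = 0.0707, limma). Its NOR and DIA arrays did not overlap, and the difference was -1.34 without DIA1 and -0.57 without DIA2.

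The members whose probe sets had the highest and lowest mean signal were also followed. Mrpl51 had the highest, with 6222 and 7139 in NOR and 8054 and 8856 in DIA, and Mrpl39 the next, with 6655 and 8219 in NOR and 7762 and 5561 in DIA. Their differences were 0.34 ± 0.32 and -0.17 ± 0.34 (SE). Other probe sets above the signal filter gave -0.62 and 0.08 for Mrpl51 and -0.91 for Mrpl39. Mrps27 and Mrps11, with the lowest means, differed by -0.11 ± 0.38 and -0.30 ± 0.42 (SE), with overlapping groups. Mrps6 had the widest spread within a group, with 1935 on DIA1 and 7537 on DIA2.

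Other probe sets of the same genes gave a second reading. Of 156 probe sets for the 76 members, 61 others passed the signal filter and read 36 of the genes. In DIA against NOR, 44 of these 61 were lower, with a median of -0.30, and 40 had the sign of the chosen probe set. Disagreement lay mostly with the 15 members that were higher in DIA: 11 had another probe set, and in 10 of them at least 1 had the opposite sign. Of the 61 lower members, 25 had another probe set and 7 of these had an opposite one. Mrpl15, read by 8 probe sets, gave values from -1.47 to 0.44 among the 6 above the filter. In AAT against DIA 33 of the 61 others had the sign of the chosen probe set and 28 the opposite sign. Among members lower in AAT than in DIA, 16 of 28 others had the opposite sign. In AAT against NOR 40 of the 61 had the same sign.

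The size of the difference moved when single arrays were left out, which leaves a group of 1 array. The members' median was -0.21 without NOR1 and -0.53 without DIA2, against -0.02 and -0.04 over all genes. With each array's hybridisation control level in the fit the median was -0.12, against 0.01 over all genes. In that fit 4 members were lower at an unadjusted p under 0.05 (limma). Over all genes, those past that p in either direction fell from 1291 to 695, so the background fell too. With the beta-actin ratio as a covariate the members' median turned to 0.74, against 0.32 over all genes, with 24 members lower. There 0 members were lower at an unadjusted p under 0.05 (limma), beside 1284 of all genes in either direction. The beta-actin ratio was nearly constant within NOR and within DIA and differed between them. It and the diabetic state therefore cannot be told apart in these arrays.

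The AAT group was set against DIA to ask how the members differed after treatment and reversion. The members were close to the background of all genes in this comparison. A difference above 0 was found in 45 of 76 members, where 51.2% of all genes had one, and below 0 in 31, against 48.8%. The median was 0.07 against 0.01. AAT arrays were both above both DIA arrays in 13 members, 17.1% against 17.9%, and both below in 7, 9.21% against 15.9%. At an adjusted p of 0.05 limma called 0 members and 0% of all genes, and the smallest adjusted p among members was 0.962. At an unadjusted p under 0.05 there was 1 member lower, against 1.83% of all genes, and 0 higher, against 2.94%.

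The member lower at that level was Mrps15, with the signals given above: both AAT arrays were below both DIA arrays, and the difference was -0.90 ± 0.35 (SE; unadjusted p = 0.0316, adjusted p = 0.962, limma). Its second probe set differed by -0.08. Mrpl11, at the base of the stalk, had 2478 and 2629 in DIA and 1974 and 1159 in AAT, and differed by -0.73 ± 0.36 (SE). A second Mrpl11 probe set of similar mean signal, 1998 against 2129, went the other way, by 0.16. Its further probe sets gave -0.50 and 0.27. Mrps9, Mrpl12 and Mrpl51 differed by -0.56, -0.51 and -0.49. Other probe sets above the signal filter gave -0.23, -1.04 and 0.01 for Mrps9 and 0.13 and -0.13 for Mrpl51. Without AAT2 the difference was -0.55 for Mrps15 and -0.36 for Mrpl11, and without DIA1 it was -0.27 for Mrps9.

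On the higher side, all 5 members with the smallest p were of the large subunit, and in each AAT2 was much higher than AAT1. Mrpl27 differed by 0.91 ± 0.42 (SE; unadjusted p = 0.0584, limma), and Mrpl42 by 0.87 ± 0.45 (SE). Mrpl50 had signals of 937 and 1093 in NOR, 438 and 436 in DIA, and 548 and 1186 in AAT, a difference of 0.79 ± 0.39 (SE). Mrpl17 had 1217 and 1422 in DIA and 1575 and 2895 in AAT, a difference of 0.67 ± 0.36 (SE). Mrpl10, which holds Mrpl12 on the ribosome, had 982 and 803 in DIA and 1218 and 1742 in AAT, a difference of 0.67 ± 0.32 (SE; unadjusted p = 0.0718, limma). Without AAT2 these 5 differences were 0.45 for Mrpl27, 0.32 for Mrpl42, 0.28 for Mrpl50, 0.25 for Mrpl17 and 0.42 for Mrpl10. A second probe set above the signal filter gave 0.007 for Mrpl50. That of Mrpl27, dim with a mean signal of 197, gave -0.016. The other probe sets of Mrpl17 gave 0.36 and 0.78.

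Mrps18a was not higher on the AAT arrays: its difference from DIA was 0.08 ± 0.29 (SE). Mrps18b differed by -0.37 ± 0.39, Mrps18c by 0.35 ± 0.34, Mrps12 by 0.19 ± 0.30 and Mrpl1 by 0.50 ± 0.46 (SE). Mrpl39, Mrps11 and Mrps27 differed by -0.27, 0.04 and 0.15. A second Mrpl39 probe set went the other way, by 0.57. The large subunit had 27 members higher and 22 lower, with a median of 0.04, where 51.2% of all genes were higher. The small subunit had 17 higher and 9 lower, with a median of 0.07. The median over all members was -0.06 without AAT2, -0.00017 without DIA1 and 0.21 without AAT1, so its sign changed with single arrays.

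AAT against NOR asks whether the members in treated, reverted mice stood where they did in normoglycemic mice. This comparison shares the NOR arrays with the first and the AAT arrays with the second, so the 3 are not independent. In 65 of 76 members AAT was lower, where 52% of all genes were, and in 11 it was higher, against 48%. The median difference was -0.33 against -0.03. Both AAT arrays were below both NOR arrays in 24 members, 31.6% against a background of 16.1%. Both were above in 1 member, Mrpl22, 1.32% against 16%. At an adjusted p of 0.05 limma called 0 members and 0% of all genes, and 0.788 was the smallest adjusted p among members. At an unadjusted p under 0.05 there were 2 members lower, 2.63% against 1.72%, and 0 higher against 3.41%.

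Those 2 members were Mrps18a and Mrps28. Mrps18a differed by -1.21 ± 0.29 (SE; unadjusted p = 0.00308, adjusted p = 0.788, limma). Mrps28, of the small subunit, had signals of 1213 and 1254 in NOR, 620.1 and 819 in DIA, and 660.0 and 566 in AAT. Its 4 DIA and AAT arrays were all below both NOR arrays, and AAT differed from NOR by -0.93 ± 0.31 (SE; unadjusted p = 0.0164, limma). Mrpl45, Mrpl32 and Mrpl20 followed with -0.70 ± 0.32, -0.67 ± 0.32 and -0.68 ± 0.36 (SE). Mrpl20, which acts in large-subunit assembly in bacteria, had 2816 and 2391 in NOR, 1639 and 2593 in DIA, and 1312 and 1925 in AAT, so its AAT and NOR arrays did not overlap.

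The members with the smallest p on the higher side were Mrps25, Mrpl10, Mrps18b, Mrpl22 and Mrps12, with differences of 0.58, 0.27, 0.29, 0.16 and 0.12, none with an unadjusted p under 0.05 (limma). Without NOR1 the difference of Mrps25 was 0.038, and without AAT2 that of Mrpl10 was 0.028 and that of Mrpl22 0.014. Also without 1 array, Mrps18b was -0.12 (without AAT1) and Mrps12 -0.021 (without AAT2). Mrpl22 lines the exit tunnel. Its signals were 1388 and 1363 in NOR, 1027 and 1192 in DIA, and 1389 and 1724 in AAT, so the lower AAT array was level with the higher NOR array. Mrps18c, Mrpl12 and Mrpl1 differed by -0.06, -0.14 and -0.46, and Mrpl51, Mrpl39, Mrps11 and Mrps27 by -0.15, -0.44, -0.26 and 0.04. By subunit, 43 of 49 large-subunit members and 21 of 26 small-subunit members were lower, both at a median of -0.32. Of all genes, 52% were lower.

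The members' median was -0.18 without NOR1, -0.17 without AAT1 and -0.44 without AAT2, against -0.02, 0.04 and -0.06 over all genes. It was -0.35, against -0.04, without NOR1 and AAT2, the arrays with the brightest hybridisation controls. With the hybridisation control level in the fit it was -0.20, against 0.002 over all genes, with 57 members lower. With the beta-actin ratio as a covariate it was 0.16, against 0.18 over all genes, with 27 members lower. There 0 members were lower at an unadjusted p under 0.05 (limma), beside 1196 of all genes in either direction.

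The rest of the mitochondrial translation pathway was read from 6 lists, none of whose genes passed an adjusted p of 0.05 (limma). Over all genes tested 53.6% were lower in DIA than in NOR, the background for the counts of lower genes in these lists. In DIA against NOR, 4 of 7 ribosome-associated proteins with other names were lower, 57.1%, with a median of -0.39. Oxa1l, the insertase that receives nascent chains at the inner membrane, had signals of 972 and 518 in NOR, 267 and 174 in DIA, and 320.4 and 548 in AAT, a difference of -1.44 ± 0.43 (SE; unadjusted p = 0.00971, limma). Its NOR and DIA arrays did not overlap. Chchd1, a small-subunit protein, differed by -0.63. Of 15 translation factors 11 were lower, 73.3%, with a median of -0.22. They were led by the elongation factor Gfm1 at -0.81 and Gatb, of the enzyme that completes glutaminyl-tRNA, at -0.64.

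The mitochondrial aminoacyl-tRNA synthetases had no common direction, with 8 higher and 8 lower of 16 and a median of 0.01. The threonyl enzyme Tars2 differed by 1.65 ± 0.58 and the methionyl enzyme Mars2 by -1.51 ± 0.66 (SE). Of 24 assembly and rRNA modification factors 12 were lower and the median was -0.03. The pseudouridine synthase Trub2 differed by 1.25 and the helicase Dhx30 by 1.22. Of 12 genes of mitochondrial DNA upkeep and transcription 5 were lower, with a median of 0.09; the transcription factor Tfb2m differed by -0.86 and the RNA polymerase Polrmt by 0.69.

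Among 11 nuclear regulators of mitochondrial genes, 7 were lower in DIA, 63.6% against 53.6% of all genes tested, with a median of -0.16. The largest difference in this list was that of the coactivator Ppargc1b, which was higher in DIA by 1.52 ± 0.73 (SE). Its unadjusted p was not under 0.05 (limma). Myc had signals of 527 and 465 in NOR, 155 and 150.1 in DIA, and 343 and 492 in AAT. Its DIA arrays were below the 4 others, with a difference of -1.33 ± 0.37 from NOR (SE; unadjusted p = 0.00682, limma) and of 1.10 ± 0.37 for AAT against DIA (SE; unadjusted p = 0.0173, limma). Esrra, the estrogen-related receptor alpha, differed by 0.73. Gabpa, whose core motif is shown above, differed by -0.37 ± 0.30 and Nrf1 by 0.13 ± 0.43 (SE); both are named for their motifs and not for their values.

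In AAT against DIA the 6 lists had medians of 0.10 for ribosome-associated proteins, -0.01 for translation factors, -0.18 for synthetases, 0.02 for assembly factors, -0.13 for transcription and 0.17 for regulators. The genes with the smallest p in each list were Oxa1l (0.77) and Chchd1 (0.56), Qrsl1 (-0.64) and Tufm (-0.44), Kars (0.52) and Fars2 (-0.49), Trub2 (-1.24) and Rpusd3 (-0.67), Polg (-0.36) and Mgme1 (-0.49), and Ppargc1b (-2.32) and Myc. Ppargc1b, a coactivator of mitochondrial gene expression, had signals of 3188 and 1343 in DIA and 927 and 111 in AAT, which did not overlap. Its AAT2 signal was under 164.4, the level that mean signals had to exceed. In AAT against NOR the medians were -0.12, -0.18, -0.11, -0.02, -0.20 and 0.01 in the same order. There the leading genes were Oxa1l (-0.67) and Gadd45gip1 (-0.38), Gfm1 (-0.40) and Mtif3 (0.82), Nars2 (-0.86) and Tars2 (0.99), Dhx30 (0.89) and Mrm2 (0.83), Tfb2m (-0.74) and Polrmt (0.58), and Ppargc1b (-0.80) and Perm1 (-0.35).

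Beside the members, cytosolic ribosomal proteins and respiratory complex I were read the same way, as sets chosen after earlier results were known. The medians in DIA against NOR were -0.34 for the members, -0.47 for 46 cytosolic ribosomal protein genes and 0.05 for 34 complex I genes. In AAT against DIA they were 0.07, 0.49 and -0.44. In AAT against NOR they were -0.33, 0.03 and -0.25. The differences between these sets were not tested.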

How the data were processed

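Fat tissue RNA, extracted with Trizol and labelled by a single-cycle protocol, was measured on 6 Affymetrix arrays, per the labels. The authors deposited 1 linear signal intensity per probe set, made with MAS5 per the submitters' processing notes, whose version and settings are not given in the sources used here. The deposited intensity values had a trimmed mean of 500.002 to 500.003 on every array, so they were already scaled. The number of arrays limits the precision.

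Groups were taken from sample titles. Signals were put on the log2(signal + 74) scale, 74 being the rounded 25th percentile of all values. The brightest probe set of each gene was kept where its mean exceeded 164.4, the 40th percentile. Of 45101 probe sets, 34945 had 1 symbol, 932 several and 9160 none. The annotation can be old. limma 3.58.1 in R 4.3.3 (statmod 1.5.0) fitted 3 group means to all 6 arrays, with eBayes trend, 2-sided tests and Benjamini-Hochberg adjustment over 13043 genes per contrast at 0.05, and the script was tested on simulated data. Named genes were the 5 members with the smallest p in each direction per contrast, the 3 Mrps18 genes, Mrpl12, Mrps12, Mrpl1, the 2 brightest and 2 dimmest members, and 2 genes per pathway list. Members and lists were chosen with earlier results of these data known. Promoter windows are from RefSeq GRCm38.p6, and the NRF1 core was shortened at one end after a longer form had been counted. The labels do not say that equal replicate numbers pair the arrays, so no block was fitted. Deviations from group means correlated at 0.08 (NOR1 with DIA1), -0.51 (NOR1 with AAT1) and -0.12 (DIA1 with AAT1). Over the genes tested NOR1 correlated at 0.839 with AAT2 and at 0.837 with NOR2.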

Additional observations from a re-analysis of the deposited data

How the results depend on the processing

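Under 19 other settings, 6 of them leaving out 1 array, 0 members passed an adjusted p of 0.05 in limma. Settings covered pseudocount, filter, normalization, probe set choice, covariates and the shrinkage of variances. Over all genes, AAT against DIA called 1 without the filter, and AAT against NOR 0 to 3 when 1 array was left out. The labels do not say whether equal replicate numbers pair the arrays. With the replicate number as a block, members lower at an unadjusted p under 0.05 (limma) in DIA against NOR were 8 in place of 13. That count was 4 with the hybridisation control covariate, 0 with the beta-actin covariate, 5 without both bright arrays (NOR1 and AAT2, an alternative chosen after seeing the data) and 3 to 13 leaving out 1 array. In AAT against DIA the count of 1 became 0 with the mean of probe sets, 2 with the beta-actin covariate, 0 without both bright arrays and 0 to 2 leaving out 1 array. In AAT against NOR the count of 2 became 0, 1 and 2 to 5 with the beta-actin covariate, without both bright arrays and leaving out 1 array. The members' median in DIA against NOR was -0.12 and 0.74 with the hybridisation and beta-actin covariates, and -0.53 to -0.21 leaving out 1 array. In AAT against DIA it was -0.015 and -0.42 with those covariates, -0.057 without both bright arrays and -0.057 to 0.21 leaving out 1 array. In AAT against NOR it was -0.20 and 0.16 with those covariates and -0.44 to -0.17 leaving out 1 array. The median relative to all genes turned to 0.42 (DIA against NOR, beta-actin), and in AAT against DIA to -0.0066 (hybridisation), -0.28 (beta-actin), -0.019 (without both bright arrays) and -0.019 to 0.11 (leaving out 1 array).

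With the beta-actin covariate, whose ratio varies within groups mainly in AAT, 29 of 41 named values changed sign. In DIA against NOR these were Mrps18b -2.18, Mrps15 -1.19, Mrps25 -0.91, Mrpl41 -0.82, Mrpl32 0.28, Mrpl42 1.39, Mrpl27 1.60, Mrpl45 0.37, Mrps18c 1.01, Mrps12 0.67 and Mrpl1 2.05. In AAT against DIA they were Mrpl27 -0.72, Mrpl50 -0.59, Mrpl42 -0.70, Mrpl17 -0.62, Mrps15 0.055, Mrpl11 0.064, Mrps9 0.083, Mrps18a -0.18, Mrps18b 1.18, Mrps18c -0.43, Mrps12 -0.21 and Mrpl1 -1.14. In AAT against NOR they were Mrps25 -0.087, Mrps18b -0.997, Mrpl20 0.039, Mrps18c 0.59, Mrpl12 0.10 and Mrpl1 0.91. With the mean of probe sets Mrps15 was -0.087 and Mrpl41 -0.26 in DIA against NOR. With the hybridisation covariate Mrps18c was 0.090 in AAT against NOR. Without both bright arrays Mrps18b was 0.039 in AAT against DIA, and Mrpl10 -0.073, Mrps12 -0.028 and Mrpl12 0.18 in AAT against NOR. Leaving out 1 array, Mrps18b ran from -0.78 to 0.039 in AAT against DIA, and in AAT against NOR Mrps18b from -0.12 to 0.70, Mrps18c from -0.36 to 0.24, Mrps12 from -0.021 to 0.26 and Mrpl12 from -0.44 to 0.17. The cause of these changes was not tested.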
